A study of Mus musculus with 180 samples.

Results

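The genes described here are 10 markers of the principal neurons of the hippocampus, taken by symbol from a table of 54429 genes: the CA1 pyramidal cell markers Wfs1, Fibcd1, Nov and Pou3f1, the dentate granule cell markers Prox1, Plk5, Dsp and C1ql2, and the broader pyramidal markers Neurod6 and Itpka. They were listed by name rather than by a cutoff on values, but with earlier results of these data known. RNA was sequenced from 30 male mice of a cross between the Camk2a-cre line T29-1 and a line with an HA-tagged ribosomal protein, Rpl22, so every group carried the same transgene and tag. The 4 groups were 7 CFC SD mice (trained, then deprived of sleep), 7 NoCFC SD mice (not trained, deprived of sleep), 8 CFC Sleep mice (trained, slept) and 8 NoCFC Sleep mice (not trained, slept). CFC is contextual fear conditioning, and the labels used here give neither the age of the mice nor the length of the sleep deprivation. Each homogenate was divided into a membrane fraction (the pellet) and a cytosolic fraction (the supernatant), and from each fraction came a pS6 capture, a Camk2a capture and an Input, giving 6 library types of 30 mice each. The pS6 capture used an antibody to phosphorylated ribosomal protein S6, a mark of active neurons, and the Camk2a capture used an antibody to the HA tag. The Input had no capture. The tag is limited to cells in which the Camk2a promoter drove Cre, whereas phosphorylated S6 is not limited to a cell type. Each homogenate mixed all hippocampal subfields, so the CA1 and dentate genes report on their cell types only through RNA.

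In the hippocampus, signals pass from dentate granule cells through their mossy fibres to CA3 pyramidal cells and on to CA1 pyramidal cells, the main output of the circuit. Each subfield is known for genes expressed in few other cells there. Translating ribosomes are either free in the cytosol or held at the endoplasmic reticulum, where messages for secreted and membrane proteins are recruited by hydrophobic stretches of the growing protein. Phosphorylation of S6 lies downstream of mTOR and ERK signalling and rises with neuronal activity.

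The 180 libraries held between 12 and 27 M (megacounts) of assigned reads. The labels call all the material neuron, but the Input held markers of other cells: the summed level of 11 astrocyte genes had a median of 9132 CPM (each count divided by the scaled library size in M) in membrane Input and 1543 CPM in cytosolic Input, and that of 9 oligodendrocyte genes 6709 and 2734 CPM. The CA1 list of 9 genes summed to a median of 1767 CPM in membrane Input and 980 CPM in cytosolic Input, and the dentate list of 13 genes to 814 and 588 CPM, so markers of both subfields were present. In no library was a gene of either list at a count of 0. The libraries of mice 19 and 22, both CFC SD, stood furthest or second furthest from the rest of their type in several types, with a median correlation to the other libraries of 0.956 to 0.985. Libraries of other groups stood out as well. Mouse 6 (NoCFC Sleep) was furthest in Input cytosolic libraries (0.967), and mouse 16 (CFC Sleep) second furthest in Input membrane libraries (0.965). In Camk2a cytosolic libraries the furthest was mouse 29 (CFC SD, 0.984). Mouse numbers run in 3 blocks: mice 1 to 11 were all NoCFC, mice 12 to 22 all CFC, and mice 23 to 30 held 2 of each group.

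All 10 genes were expressed in all 6 library types. On a scale of CPM per kilobase of exon, which allows genes to be compared, their mean levels in cytosolic Input were 202 for Itpka, 153 for Neurod6, 57.0 for C1ql2, 47.2 for Pou3f1, 43.1 for Nov, 29.7 for Fibcd1, 22.4 for Wfs1, 14.7 for Prox1, 12.1 for Plk5 and 0.614 for Dsp (n = 30 mice). Itpka, an inositol trisphosphate kinase of dendritic spines, and Neurod6, a transcription factor of pyramidal neurons, were thus the most abundant per length, and Dsp the least. The lowest count of any member in any library was 25, for Plk5 in the membrane pS6 capture of mouse 19.

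**Figure D1:**
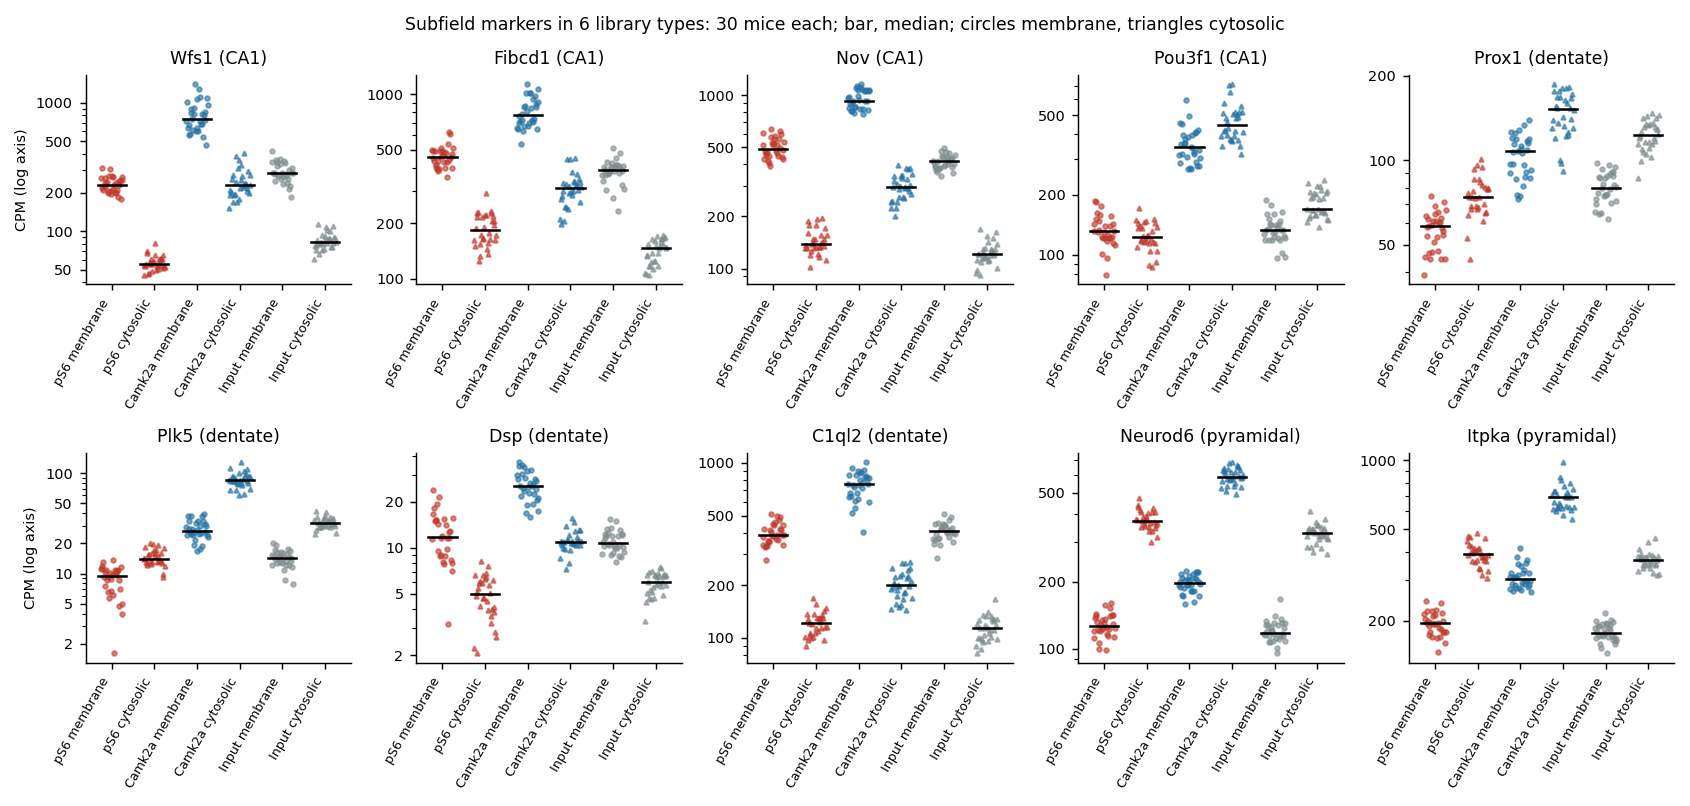
Level of each marker in CPM on a log axis, with 1 point per mouse (30 per library type) and a bar at the median. Circles mark membrane and triangles cytosolic libraries, and colour marks the capture or Input. Wfs1, Fibcd1, Nov, Dsp and C1ql2 are highest in Camk2a membrane libraries, and Pou3f1, Prox1, Plk5, Neurod6 and Itpka in Camk2a cytosolic libraries.

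Among the CA1 markers, Wfs1, a protein of the endoplasmic reticulum membrane, averaged 799 ± 221 CPM in Camk2a membrane libraries, 290 ± 51.4 CPM in Input membrane, 243 ± 63.8 CPM in Camk2a cytosolic, 233 ± 32.8 CPM in pS6 membrane, 84.8 ± 12.6 CPM in Input cytosolic and 57.0 ± 7.62 CPM in pS6 cytosolic libraries (SD, n = 30 each). Of these neighbours, Input membrane and Camk2a cytosolic, and Camk2a cytosolic and pS6 membrane, overlapped within 1 SD, and the other steps did not. Nov, a secreted matricellular protein, averaged 953 ± 117, 501 ± 66.6, 412 ± 38.2, 299 ± 51.5, 145 ± 24.1 and 124 ± 18.7 CPM in Camk2a membrane, pS6 membrane, Input membrane, Camk2a cytosolic, pS6 cytosolic and Input cytosolic libraries. Fibcd1, a transmembrane receptor with a fibrinogen domain, had the same order of library types, with means of 807 ± 150 CPM in Camk2a membrane and 141 ± 21.4 CPM in Input cytosolic libraries. Pou3f1, a POU-domain transcription factor, ran in another order, with 467 ± 102 CPM in Camk2a cytosolic, 358 ± 75.5 CPM in Camk2a membrane and 182 ± 27.6 CPM in Input cytosolic libraries, and with the remaining types at 125 to 134 CPM. For Pou3f1 every neighbouring pair overlapped within 1 SD except Camk2a membrane and Input cytosolic.

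Among the dentate markers, C1ql2, a secreted protein of mossy fibre synapses, averaged 750 ± 136 CPM in Camk2a membrane libraries and 114 ± 18.6 CPM in Input cytosolic libraries, the highest and lowest types. Prox1, the homeodomain transcription factor that defines granule cell identity, varied least between types, from 148 ± 26.6 CPM in Camk2a cytosolic to 56.7 ± 8.92 CPM in pS6 membrane libraries, and every neighbouring pair in its order overlapped within 1 SD. Plk5, a polo-like kinase family member, averaged 86.8 ± 15 CPM in Camk2a cytosolic and 8.87 ± 2.83 CPM in pS6 membrane libraries. Dsp, the desmosomal protein desmoplakin, averaged 25.8 ± 5.52 CPM in Camk2a membrane and 4.99 ± 1.58 CPM in pS6 cytosolic libraries. Its counts in pS6 cytosolic libraries were 45 to 179.

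In the captures, comparing the fractions asks which messages sit on membrane-bound ribosomes, whereas Input RNA was not selected for ribosomes. Here and for the captures, a gene was called at a Benjamini-Hochberg adjusted p below 0.05 in edgeR's quasi-likelihood test together with a fold of at least 2. In the Camk2a capture, 8 of 10 markers were called, 5 higher in the membrane fraction (background of all 15779 genes tested, 27.9% higher) and 3 lower (10.2%). Wfs1 had 468, 741 and 1395 CPM as its lowest, median and highest value in Camk2a membrane libraries, against 152, 230 and 408 CPM in Camk2a cytosolic libraries. The ranges did not overlap, and the log2 fold change was 1.74 ± 0.10 (SE), with the membrane library higher in 30 of 30 mice. C1ql2 (1.91 ± 0.07), Nov (1.70 ± 0.05), Fibcd1 (1.4 ± 0.07) and Dsp (1.23 ± 0.07) were also higher in the membrane fraction in every mouse. Neurod6 had 159, 197 and 224 CPM in Camk2a membrane libraries, against 495, 590 and 685 CPM in Camk2a cytosolic libraries. Again the ranges did not overlap, and the log2 fold change was -1.57 ± 0.03. Plk5 (-1.63 ± 0.07) and Itpka (-1.12 ± 0.04) were called lower as well. Pou3f1 (-0.36 ± 0.08) and Prox1 (-0.47 ± 0.07), both transcription factors, passed the adjusted p but not the fold.

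The comparison was repeated in the Input and the pS6 capture. In Input 4 markers were called higher in the membrane fraction (background 22%) and 3 lower (8.97%), and in the pS6 capture 5 higher (25.3%) and 1 lower (9.96%). Wfs1, Fibcd1, Nov and C1ql2 were called higher in both captures and in Input, by log2 1.30 (Fibcd1 in Input) to 2.08 (Wfs1 in pS6). Neurod6 was called lower in all 3, by -1.52 to -1.58. Dsp reached 1.38 ± 0.13 in the pS6 capture and 0.77 ± 0.06 in Input, short of the fold there. Plk5 was -1.33 ± 0.05 in Input and -0.71 ± 0.10 in the pS6 capture, where it was not called. Of the other genes of the lists, 3 of 5 CA1 genes were called higher in the Camk2a membrane fraction, among them Spink8 at 2.06 ± 0.08, and 4 of 9 excitatory genes were called lower, among them Hpca at -1.37 ± 0.04, while Slc17a7, the vesicular glutamate transporter, was called higher at 1.6 ± 0.04. Scaling by total counts in place of TMM moved the median of all genes from log2 -0.07 to -0.33 in the Camk2a capture and turned Pou3f1 in the pS6 capture, uncalled at 0.15 ± 0.05, to -0.08. It also changed the split of all calls in the Camk2a capture from 4409 higher and 1616 lower to 3690 higher and 3280 lower, in Input from 3642 and 1482 to 2630 and 3381, and in the pS6 capture from 4526 and 1779 to 3709 and 3346. Dsp in the Camk2a capture was then 0.98, short of the fold, while Prox1 in Input (-1.02) and Itpka in the pS6 capture (-1.20) were called lower. Itpka in the pS6 capture was also called lower with no filter on low counts (-1.02).

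To set the coding sequences beside these values, the principal coding transcript of each gene was used, with length deciding only between equally ranked ones. From it was taken the stretch of 20 codons with the most codons that have T as their second base. Such codons encode phenylalanine, leucine, isoleucine, methionine and valine, the hydrophobic residues that fill signal peptides and membrane spans. The sequences below are the genes with the clearest membrane preference, followed by 3 without it; capitals mark the codons with T as second base, and all were read from GENCODE vM21 on GRCm38, 5′ to 3′ on the coding strand.
Wfs1: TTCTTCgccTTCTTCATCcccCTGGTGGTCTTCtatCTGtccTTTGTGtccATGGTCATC
Fibcd1: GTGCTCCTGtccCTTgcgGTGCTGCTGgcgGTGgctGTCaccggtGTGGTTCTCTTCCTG
Nov: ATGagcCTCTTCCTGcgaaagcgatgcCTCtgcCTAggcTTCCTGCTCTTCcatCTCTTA
C1ql2: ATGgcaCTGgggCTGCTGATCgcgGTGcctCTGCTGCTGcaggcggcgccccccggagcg
Neurod6: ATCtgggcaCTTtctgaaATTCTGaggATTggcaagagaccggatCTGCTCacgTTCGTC
Prox1: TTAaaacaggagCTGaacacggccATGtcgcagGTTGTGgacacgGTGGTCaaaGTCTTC
Pou3f1: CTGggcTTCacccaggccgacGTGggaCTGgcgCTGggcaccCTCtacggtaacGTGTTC

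The window of Wfs1, codons 342 to 361, held 15 such codons, a count that 8.04% of 21504 genes reached or passed. That of Fibcd1, codons 35 to 54, held 14 (16.1% of genes), and that of Nov, codons 1 to 20, held 12 (33.2%). The windows of Nov and C1ql2 start at the first codon, where a signal peptide lies in a secreted protein. C1ql2 held only 9, the same number as Neurod6 and Prox1 (86.3% of genes reach it), and Pou3f1 held 8 (94.6%). Plk5 and Itpka, both called lower in the Camk2a membrane fraction, held 10 each (69.6%), more than C1ql2. The count thus did not separate C1ql2 from the genes without membrane preference. Over all genes measured in the Camk2a capture, the median log2 membrane over cytosolic value was 1.52 for the 1495 genes with at least 14 such codons, 0.03 for the 7935 with 10 to 13 and -0.42 for the 4436 with at most 9. The same medians in Input were 1.27, -0.03 and -0.47, and in the pS6 capture 1.43, 0.14 and -0.39. Dsp, with 10, was higher in the membrane fraction although desmoplakin is not a secreted or membrane-spanning protein.

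By position on GRCm38, Wfs1 is at chr5:36966104-36989205 on the minus strand, Nov, annotated as Ccn3, at chr15:54745702-54754039 on the plus strand, and Neurod6 at chr6:55677822-55681263 on the minus strand. Pou3f1, Prox1 and Dsp have exons that overlap a gene on the other strand (Gm2164, Prox1os and Gm10129). The strand used in counting is not given in the sources used here, so reads of these genes and of their partners cannot be told apart.

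The difference between membrane and cytosolic libraries was itself compared between each capture and Input, with each gene called at the adjusted p alone. The signed log2 membrane over cytosolic value was higher, that is shifted toward the membrane fraction, in the pS6 capture than in Input for 7 of 10 markers (background 31.6% of 18174 genes, with a median of 0.09 over all of them). Where a gene was lower in the membrane fraction of Input (Pou3f1, Plk5, Prox1 and Itpka), the shift brought its value in the pS6 capture nearer to 0 or, for Pou3f1, past it. Pou3f1 led with 0.73 ± 0.08 log2 units, followed by Plk5 (0.61 ± 0.11), Dsp (0.61 ± 0.14), Wfs1 (0.45 ± 0.08), Prox1 (0.39 ± 0.07), Nov (0.24 ± 0.06) and Itpka (0.21 ± 0.05). With no filter on low counts Nov was 0.07 and Itpka 0.04, and neither was called. In the Camk2a capture against Input, Dsp was called at 0.33 ± 0.09, Plk5 at -0.44 ± 0.09 and Neurod6 at -0.13 ± 0.05, in a background of 56.2% of genes called in either direction; with the mouse as a block Prox1 (0.15) and Itpka (-0.07) were called as well. With DESeq2 size factors Neurod6 was -0.08 and no longer called (adjusted p = 0.178), and Prox1 was called at 0.20 (adjusted p = 0.0329).

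The captures differed in how much of the subfield markers they held. In the Camk2a capture against Input, 9 of 10 markers in the cytosolic fraction and 10 of 10 in the membrane fraction had an adjusted p below 0.05, all higher. With the fold, 5 were called in the membrane fraction (Pou3f1, Wfs1, Nov, Dsp and Fibcd1; background 1.9% of 16128 genes higher) and 4 in the cytosolic fraction (Wfs1, Plk5, Pou3f1 and Nov; background 0.371% of 16421 genes higher). Pou3f1 had 318, 446 and 715 CPM in Camk2a cytosolic libraries, against 138, 169 and 238 CPM in Input cytosolic libraries, with no overlap and a log2 fold change of 1.20 ± 0.07. In the membrane fraction the CA1 members ran from 1.06 ± 0.06 (Fibcd1) to 1.45 ± 0.08 (Wfs1). Neurod6 (0.69 ± 0.04) and Itpka (0.79 ± 0.04) were higher with a fold under 2. Prox1 was at 0.37 ± 0.06 in the membrane fraction and 0.11 ± 0.06 in the cytosolic fraction, where its adjusted p was 0.083. With total counts Nov in the cytosolic fraction (0.98) and Fibcd1 in the membrane fraction (0.95) were short of the fold. Among other genes of the dentate list, 0 of 9 were called in either fraction by edgeR, with medians of 0.26 in the membrane and 0.40 in the cytosolic fraction. All 11 astrocyte genes and all 9 oligodendrocyte genes were called lower in both fractions. Over all genes, calls in this comparison were mostly lower. They were 2713 lower and 306 higher of 16128 in the membrane fraction, and 2703 lower and 61 higher of 16421 in the cytosolic fraction. The T29-1 line is known for Cre activity that is strongest in CA1, which is given as background only.

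Against the Camk2a capture, the pS6 capture held less of every marker, in 30 of 30 mice for each gene and fraction. In the cytosolic fraction 6 of 10 were called lower (background 8.36% of 16730 genes) and in the membrane fraction 4 of 10 (background 1.41% of 16982 genes). Plk5 had 9.33, 14.1 and 20.2 CPM in pS6 cytosolic libraries, against 61.0, 84.4 and 128 CPM in Camk2a cytosolic libraries. These ranges lay far apart, and the log2 fold change was -2.63 ± 0.07, or 6.19-fold lower. Wfs1 was -2.17 ± 0.07 and Pou3f1 -1.99 ± 0.07 in the same comparison, followed by Dsp (-1.24 ± 0.09), Nov (-1.13 ± 0.06) and Prox1 (-1.05 ± 0.06); Prox1 was -0.99, short of the fold, with DESeq2 or its size factors. Fibcd1 (-0.82 ± 0.07), C1ql2 (-0.81 ± 0.06), Neurod6 (-0.73 ± 0.03) and Itpka (-0.90 ± 0.04) were lower with a fold under 2. Among the CA1 markers the values thus ran from -0.82 to -2.17.

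Of the other genes of the dentate list, 7 of 9 were called lower in the cytosolic pS6 capture against the Camk2a capture (list median -1.24 over 13 genes, all genes 0.07), and 1 of 5 other CA1 genes was. Of the CA3 or CA2 list 2 of 10 were called higher, near the 22.3% of all genes called higher, and 0 lower; its median was 0.59, with Bok at 1.94 ± 0.05 and Rgs14 at -0.45 ± 0.04. Inhibitory neuron genes were 12 of 14 higher with a median of 3.29, and their summed level was 1045 CPM in pS6 cytosolic against 227 CPM in Camk2a cytosolic libraries (medians). Choroid plexus genes had a median of 3.82 and astrocyte genes 1.52. The choroid plexus sum varied widely between libraries, from 14.5 to 2325 CPM in pS6 cytosolic and from 20.7 to 67.8 CPM in Camk2a cytosolic libraries. Its medians were 29.9 and 33.2 CPM, so the typical library held no more of it in the pS6 capture. CPM is a share of each library, and the part of these other cells in the lower marker levels was not tested. Scaling by total counts moved the median of all genes from 0.07 to 0.23 and the calls from 3738 higher and 1399 lower to 4395 higher and 730 lower; all 10 markers were below 0 there too, and Nov (-0.96) and Prox1 (-0.88) in the cytosolic and Dsp (-0.90) in the membrane fraction were short of the fold.

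Against Input the pS6 capture differed by a fold under 2 for all markers but Plk5 in the cytosolic fraction. Plk5 was called lower in the cytosolic fraction at -1.25 ± 0.06 (background 8.84% of 17112 genes lower), and no marker was called in the membrane fraction by edgeR or DESeq2 (background 10.8% of 17101 genes; 7 of 10 at an unadjusted p under 0.05). Prox1 (-0.84 ± 0.05), Wfs1 (-0.70 ± 0.05) and Pou3f1 (-0.68 ± 0.05) passed the adjusted p in the cytosolic fraction at lower values, and Fibcd1 at a higher one (0.26 ± 0.06), all under a fold of 2. In the membrane fraction Nov (0.28 ± 0.03) and Fibcd1 (0.26 ± 0.05) were at higher values, and Plk5 (-0.69 ± 0.10), Prox1 (-0.50 ± 0.05) and Wfs1 (-0.31 ± 0.06) at lower ones.

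**Figure D2:**
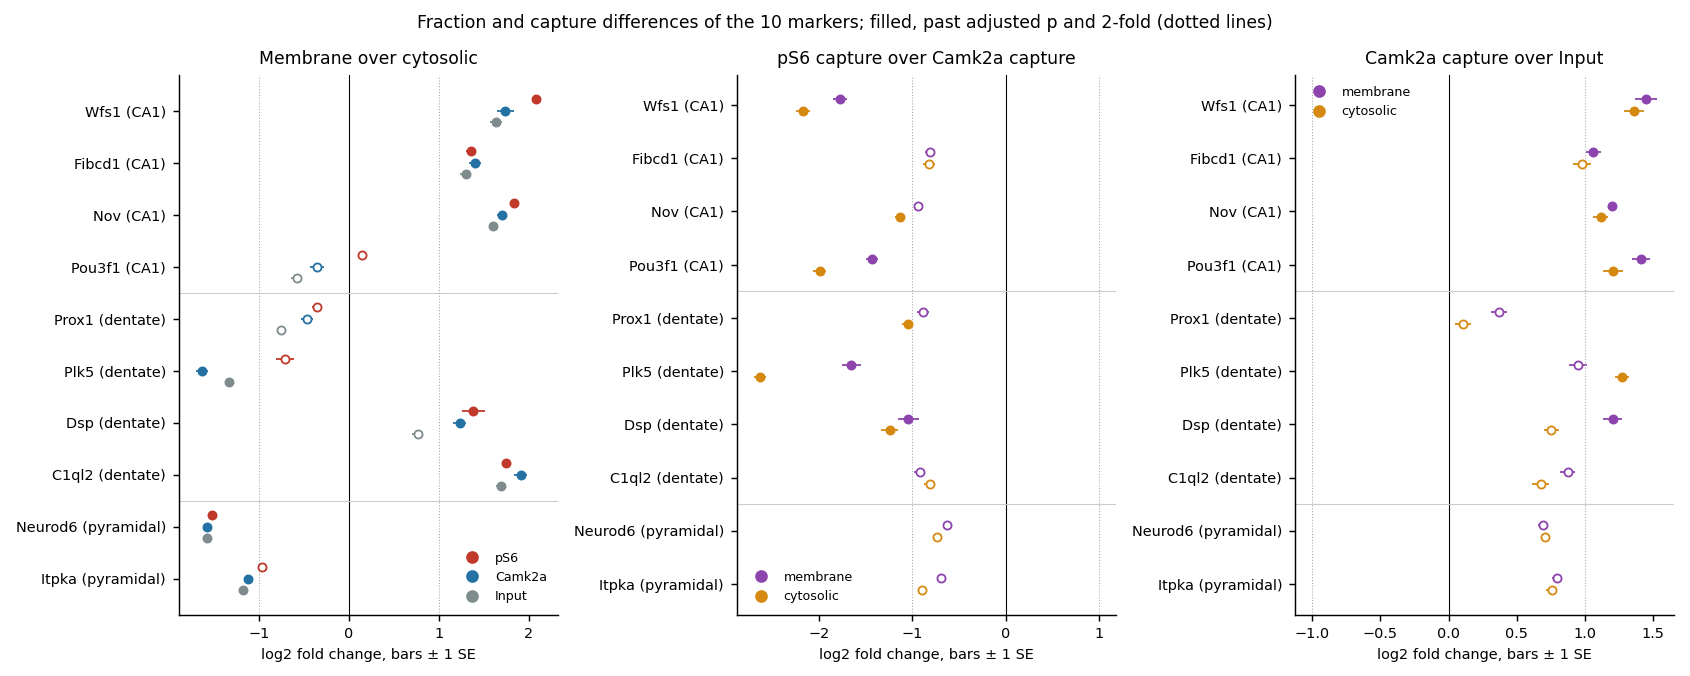
Log2 fold changes with 1 SE for the 10 markers: membrane over cytosolic in each capture and in Input, then pS6 over Camk2a and Camk2a over Input in each fraction. Filled points pass the adjusted p and a fold of 2, marked by dotted lines. Wfs1, Fibcd1, Nov and C1ql2 lie right of 1 for the membrane fraction in both captures and in Input. All 10 markers lie left of 0 in pS6 over Camk2a.

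Sleep deprivation changed several markers in the pS6 captures. Tests of SD against Sleep averaged over training, and a gene was called at an adjusted p below 0.05. In the pS6 cytosolic libraries Fibcd1, Nov, Neurod6 and Itpka fell (4 of 10, background 3.28% of 16485 genes lower) and Prox1 rose (1 of 10, background 4.6% higher). Fibcd1 had 125, 164 and 217 CPM in the 14 SD mice, against 151, 218 and 290 CPM in the 16 Sleep mice. The ranges overlapped, but all 14 SD mice lay below the median of the Sleep mice of their own training group, and the log2 fold change was -0.31 ± 0.08 (adjusted p = 0.0102). Prox1 had 65.7, 80.8 and 101 CPM in SD mice, against 44.4, 68.6 and 96.2 CPM in Sleep mice. SD mice were higher than the Sleep median of their training group in 14 of 14 cases, the lowest by under 1 CPM, and the log2 fold change was 0.27 ± 0.07 (adjusted p = 0.00953).

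Neurod6 had 301, 356 and 409 CPM in SD mice, against 355, 399 and 472 CPM in Sleep mice, a log2 fold change of -0.15 ± 0.04 (adjusted p = 0.00411, lower in 14 of 14). Itpka fell by 0.16 ± 0.05 on the log2 scale (adjusted p = 0.0228, lower in 14 of 14) and Nov by 0.22 ± 0.07 (adjusted p = 0.0366, lower in 12 of 14). The changes were modest, with 14 SD and 16 Sleep mice overlapping for each gene. Pou3f1 was at -0.17 ± 0.06 and Wfs1 at -0.11 ± 0.06, and neither passed. Of the other dentate markers C1ql2 was at 0.06 ± 0.07, Dsp at 0.06 ± 0.16 and Plk5 at -0.01 ± 0.09, all uncalled, and 0 of 9 other dentate genes were called. Prox1 is also known from inhibitory neurons that arise in the caudal ganglionic eminence.

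In the pS6 membrane libraries the same 4 genes fell (background 0.619% of 16637 genes lower) and Prox1 did not pass. Fibcd1 had 356.0, 418.6 and 512.2 CPM in SD mice, against 413.4, 492.8 and 621.4 CPM in Sleep mice, a log2 fold change of -0.23 ± 0.05 (adjusted p = 0.00383). Nov had 391.5, 453.9 and 579.1 CPM in SD mice, against 428.7, 529.4 and 633.1 CPM in Sleep mice, a log2 fold change of -0.21 ± 0.05 (adjusted p = 0.0076). Neurod6 (-0.21 ± 0.05, adjusted p = 0.0159) and Itpka (-0.21 ± 0.04, adjusted p = 0.00654) fell by as much. Each was lower in 13 of 14 SD mice. Prox1 was at 0.04 ± 0.08, with 44.4, 58.8 and 74.7 CPM in SD mice against 39.1, 57.6 and 68.6 CPM in Sleep mice. Plk5 was at -0.33 ± 0.17, with the widest error of the set beside Dsp.

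**Figure D3:**
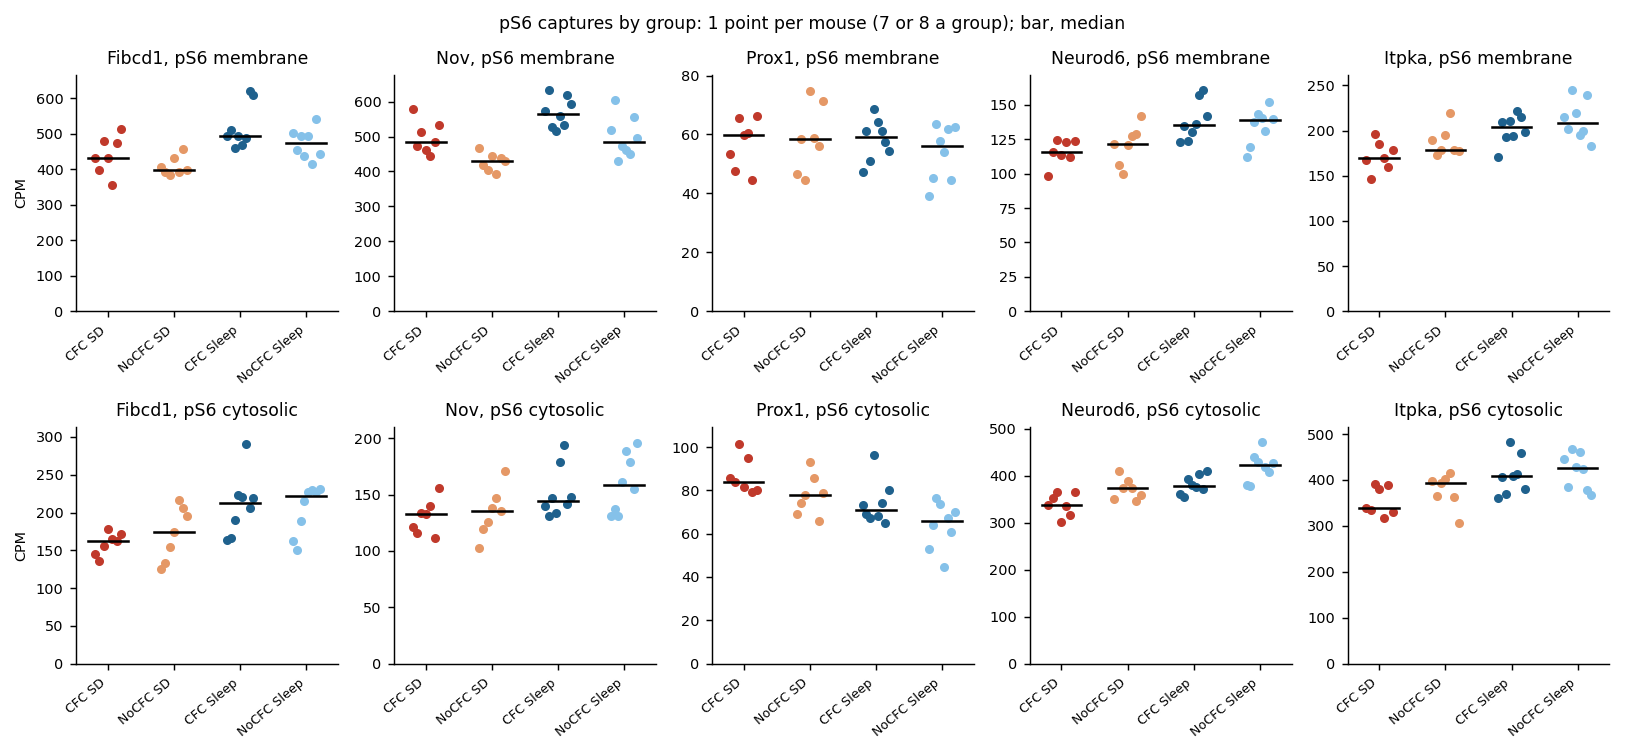
CPM in the pS6 captures for Fibcd1, Nov, Prox1, Neurod6 and Itpka, membrane above and cytosolic below, with 1 point per mouse and a bar at the median of CFC SD and NoCFC SD (7 mice each) and CFC Sleep and NoCFC Sleep (8 mice each). In the cytosolic row the Fibcd1 medians are 162 and 174 CPM in the SD groups, against 213 and 221 CPM in the Sleep groups, and those of Prox1 are 83.7 and 77.8 CPM, against 71.1 and 65.7 CPM.

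For the markers called in a pS6 library type, the direction in that type was the same in each run of mouse numbers. The runs are parts of the data that gave the calls, so this is a description. For Fibcd1 in pS6 cytosolic libraries the SD minus Sleep difference of mean log2 CPM was -0.27 in the first run (mice 1 to 11), -0.36 in the run from 12 to 22 and -0.29 in the run from 23 to 30, and for Prox1 it was 0.38, 0.31 and 0.13. Fibcd1, Nov, Neurod6 and Itpka were negative in all 3 runs in both fractions, from -0.12 to -0.36. Without mice 23 to 30, Prox1 alone passed in the cytosolic and Fibcd1 alone in the membrane pS6 libraries, with Fibcd1 at -0.33, Nov at -0.25, Neurod6 at -0.13 and Itpka at -0.15 in the cytosolic ones and Nov at -0.19, Neurod6 at -0.20 and Itpka at -0.19 in the membrane ones. Calls over all genes in these 22 mice were 471 in the cytosolic and 76 in the membrane libraries (2.83% and 0.447% of genes). Without mice 19 and 22 the adjusted p of Itpka in pS6 cytosolic libraries was 0.0576, and with no filter on low counts that of Nov was 0.0762.

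Genes of other cell types were also compared between SD and Sleep mice in the same libraries, and mainly those of inhibitory neurons were called. In pS6 cytosolic libraries 11 of 14 inhibitory neuron genes rose (median 0.32, all genes 0.00), with Sst, the somatostatin gene of dendrite-targeting interneurons, at 0.54 ± 0.10. Their summed level was 1022 to 1366 CPM in SD mice, against 869 to 1067 CPM in Sleep mice. Astrocyte genes had a median of 0.35 with 1 of 11 called, and their sum was 628 to 2131 CPM in SD mice, against 532 to 1645 CPM in Sleep mice. Choroid plexus genes had a median of 0.75 with 0 of 5 called (edgeR). Their sum ran from 17.2 to 2325 CPM in SD mice, against 14.5 to 1157 CPM in Sleep mice. The median of that sum was alike, at 30.0 CPM in SD and 29.9 CPM in Sleep mice. In pS6 membrane libraries 5 of 14 inhibitory genes rose (median 0.20), where 1.11% of all genes were called higher. The part of these cells in the changes of the markers was not tested. In bulk captures, fewer cells of a type and less RNA per cell cannot be told apart.

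Of the other genes of the lists, Mpped1 was the single CA1 gene of 5 to fall in pS6 cytosolic libraries (-0.13 ± 0.03), and Ndst4 rose (0.24 ± 0.06) in pS6 membrane libraries. Among 9 other excitatory genes Camkv fell (-0.11 ± 0.03) and Arpp21 rose (0.38 ± 0.05) in pS6 cytosolic libraries. None of 10 CA3 or CA2 genes was called by edgeR in either fraction, with medians of 0.01 in membrane and 0.04 in cytosolic libraries. The mean log2 CPM of the 4 CA1 members minus that of the 4 dentate members, given as a description, had a median of 1.86 in pS6 cytosolic libraries of SD mice, against 2.16 in Sleep mice. In pS6 membrane libraries it was 2.81 in SD mice and 2.93 in Sleep mice, and in Input cytosolic libraries 1.68 in SD mice and 1.69 in Sleep mice. In Camk2a libraries its median was higher in SD mice, at 2.96 in SD and 2.83 in Sleep mice for membrane libraries. For Camk2a cytosolic libraries it was 2.07 in SD and 1.99 in Sleep mice, and for Input membrane libraries 2.55 and 2.53. The ranges of SD and Sleep mice overlapped in every type. They were 1.476 to 2.362 against 1.784 to 2.998 in pS6 cytosolic and 2.515 to 3.653 against 2.527 to 3.851 in Camk2a membrane libraries. The members averaged include the called Fibcd1, Nov and Prox1.

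No marker was called for SD against Sleep in the Camk2a or Input libraries, by edgeR or by DESeq2, where 2.97% (Camk2a membrane), 6.28% (Camk2a cytosolic), 1.37% (Input membrane) and 3.17% (Input cytosolic) of all genes were called. At an unadjusted p under 0.05 there were 1, 0, 2 and 3 markers in these types. Fibcd1 was at 0.04 ± 0.07 in Camk2a membrane and 0.05 ± 0.10 in Camk2a cytosolic libraries, with a 95% interval of -0.14 to 0.24 for the cytosolic value. Neurod6 in Input cytosolic libraries was at -0.13 ± 0.04 (adjusted p = 0.125), and Itpka at -0.11 ± 0.04 (adjusted p = 0.201). Plk5 was at -0.24 ± 0.10 in Camk2a membrane, -0.12 ± 0.08 in Camk2a cytosolic, -0.20 ± 0.08 in Input membrane and -0.16 ± 0.06 in Input cytosolic libraries, negative in each without passing.

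**Figure D4:**
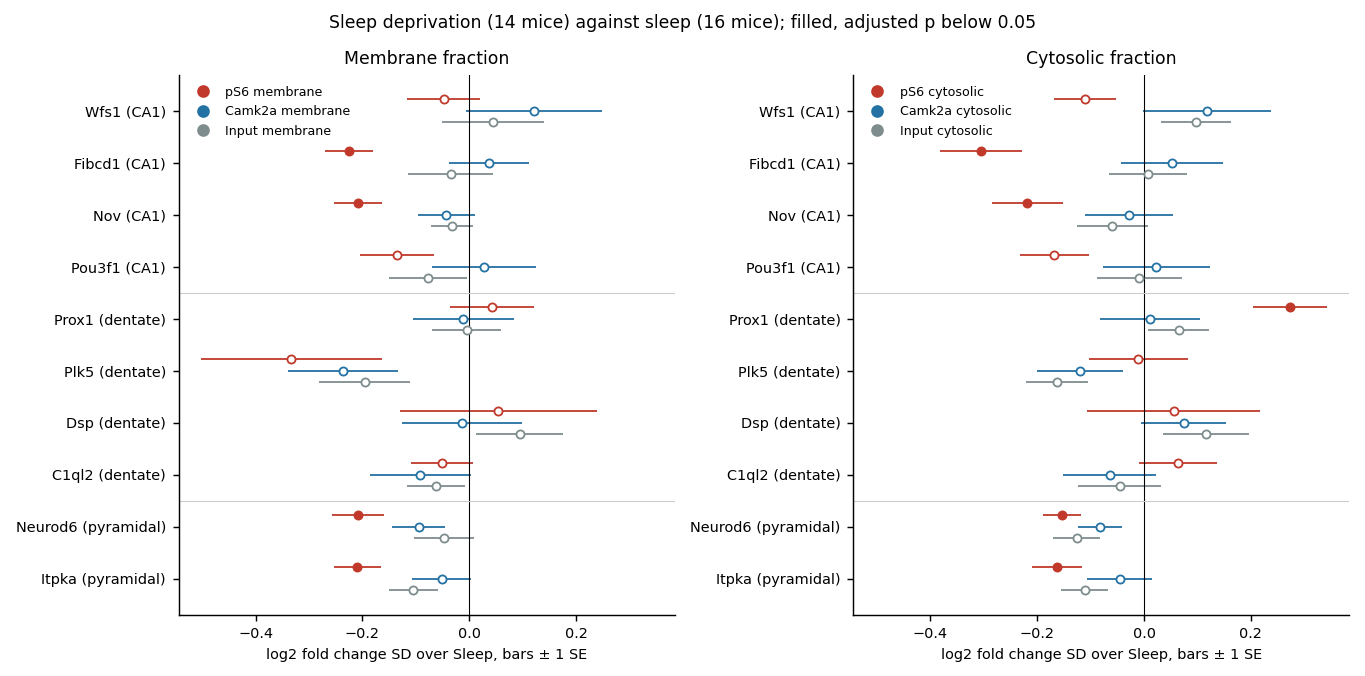
Log2 fold change of SD (14 mice) over Sleep (16 mice) with 1 SE in each capture and in Input, membrane fraction at left and cytosolic at right. Filled points have an adjusted p below 0.05. The filled points are all in the pS6 captures: Fibcd1, Nov, Neurod6 and Itpka left of 0 in both fractions, and Prox1 right of 0 in the cytosolic fraction.

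Whether the effect of sleep deprivation differed between the pS6 capture and the Camk2a capture or Input was tested directly. Without the mouse as a block, no marker was called by edgeR in any of 4 comparisons, against 0.0589% of all genes for pS6 minus Camk2a in the membrane fraction, 0.586% for the same in the cytosolic fraction, 0.111% for pS6 minus Input in the membrane fraction and 0.672% for the same in the cytosolic fraction. At an unadjusted p under 0.05 there were 3, 2, 3 and 3 markers. The 6 libraries of a mouse number were taken as 1 animal, and with the mouse as a block the effect was lower in the pS6 than in the Camk2a cytosolic libraries for Fibcd1 (-0.35, adjusted p = 0.000562) and Nov (-0.18, adjusted p = 0.0257). The blocked fit called 2.34% of all genes for this comparison. Against Input cytosolic libraries, where the blocked fit called 2.27% of all genes, it was lower for Fibcd1 (-0.32, adjusted p = 2.97e-05), Wfs1 (-0.21, adjusted p = 0.00346) and Nov (-0.16, adjusted p = 0.00717). The corresponding fits for the membrane fraction called no marker. Prox1 was at 0.26 ± 0.12 against the Camk2a capture and 0.20 ± 0.09 against Input in the cytosolic fraction and was not called in either fit.

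Training was compared in the same way, CFC against NoCFC averaged over sleep. In the cytosolic fraction no marker was called by edgeR or DESeq2 in either capture or in Input. Of all genes, 0.133% (pS6), 0.148% (Camk2a) and 0.219% (Input) were called there. At an unadjusted p under 0.05 there were 3, 0 and 1 markers. In the membrane fraction calls were common over all genes, at 16.8% in pS6, 17% in Camk2a and 6.53% in Input libraries, and 3, 2 and 1 markers were called. Nov was higher in CFC mice in all 3: in pS6 membrane libraries it had 445.0, 532.7 and 633.1 CPM in CFC mice, against 391.5, 449.6 and 605.0 CPM in NoCFC mice, a log2 fold change of 0.19 ± 0.05 (adjusted p = 0.00295). It was 0.18 ± 0.05 in Camk2a and 0.17 ± 0.04 in Input membrane libraries. Fibcd1 was called in the Camk2a membrane libraries at 0.28 ± 0.08 (adjusted p = 0.0104). In pS6 membrane libraries Pou3f1 was lower, at 79.3, 122 and 156 CPM in CFC mice, against 115, 143 and 185 CPM in NoCFC mice (-0.32 ± 0.07, adjusted p = 0.00113), and C1ql2 was higher (0.19 ± 0.06, adjusted p = 0.0185).

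The training effect cannot be told apart from the run of mouse numbers in mice 1 to 22, and with the run as a term no marker was called in any type. That fit called almost no gene at all in the membrane fraction, 12 in pS6, 1 in Camk2a and 0 in Input libraries by edgeR, so it does not single out the markers. With the run term Fibcd1 in Camk2a membrane libraries was 0.27, and Nov was 0.19 in pS6, 0.20 in Camk2a and 0.13 in Input membrane libraries, whereas Pou3f1 was -0.02 and C1ql2 0.07 in pS6 membrane libraries. In mice 23 to 30, which hold 4 CFC and 4 NoCFC mice, the CFC minus NoCFC difference for Pou3f1 in pS6 membrane libraries was -0.02, against -0.43 in mice 1 to 22. For C1ql2 it was 0.08, against 0.23. Nov was alike in both, at 0.19 and 0.19 in pS6, 0.20 and 0.16 in Camk2a and 0.13 and 0.18 in Input membrane libraries. Fibcd1 in Camk2a membrane libraries was 0.29 and 0.26. In the cytosolic fraction Nov was negative in mice 23 to 30 (-0.23 in pS6, -0.21 in Camk2a and -0.22 in Input) and positive in mice 1 to 22 (0.02, 0.13 and 0.10).

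**Figure D5:**
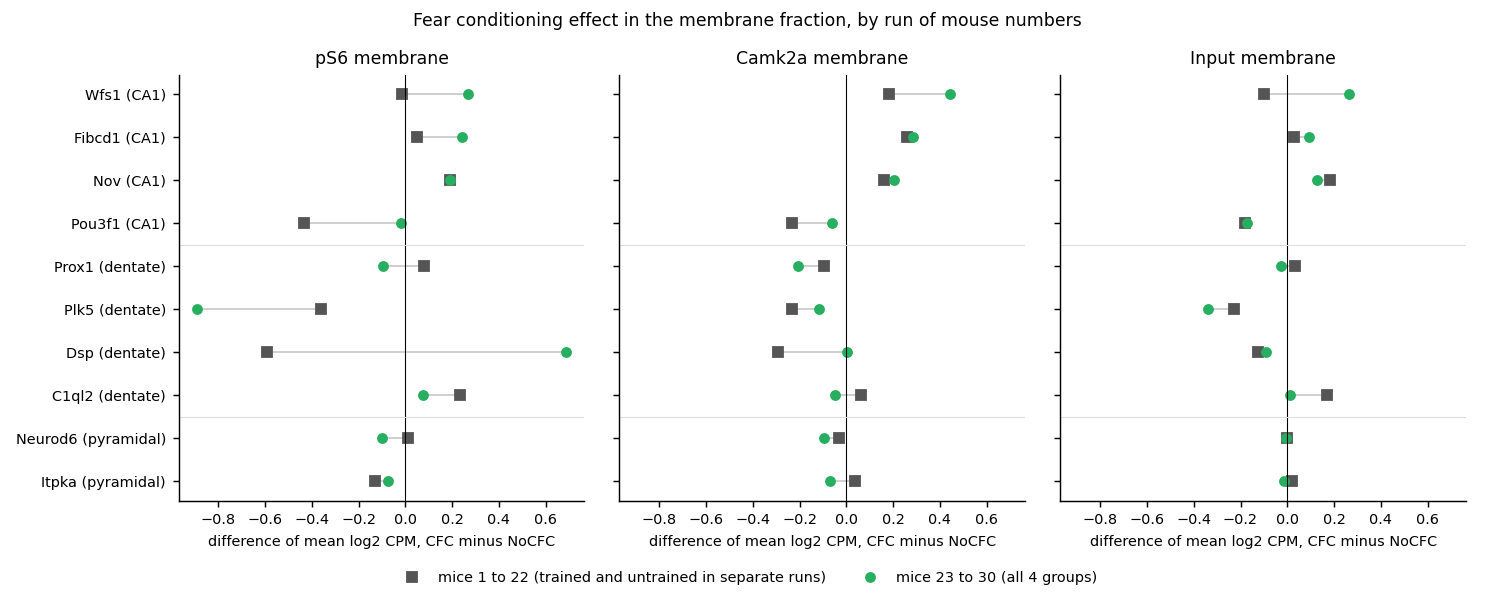
CFC minus NoCFC difference of mean log2 CPM in the membrane fraction for each marker, computed in mice 23 to 30 (circles, all 4 groups in the run) and in mice 1 to 22 (squares, trained and untrained mice in separate runs). Nov has nearly equal values in both sets in the pS6 and Camk2a captures, whereas Pou3f1 in the pS6 capture is -0.43 in mice 1 to 22 and -0.02 in mice 23 to 30.

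No marker was called for the interaction of training and sleep in any of the 6 types by edgeR (background 0% of genes in each), and DESeq2 was not run for it. At an unadjusted p under 0.05 there were 295 to 712 genes per type, and 1 marker in 1 type. That was Dsp in pS6 cytosolic libraries, at -0.68 ± 0.32 with an edgeR quasi-likelihood p of 0.0428 before adjustment. For Fibcd1 in pS6 cytosolic libraries the interaction was -0.13 with a 95% interval of -0.44 to 0.17, so a difference of the size of its SD effect lay within the error.

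Finally, the markers were compared with each other over the 180 libraries after the mean of each group and library type was removed. The libraries of a type share scaling and the 6 of a mouse share the animal, so these correlations are descriptions. Fibcd1 and Nov had r = 0.62, Wfs1 and Fibcd1 0.58, and Wfs1 and Nov 0.57. Pou3f1 was closer to the pyramidal marker Itpka (0.79) than to the CA1 markers Fibcd1 (0.40), Wfs1 (0.28) and Nov (-0.11). Wfs1 and Prox1 ran opposite (-0.45), and Prox1 and Dsp together (0.43). Likeness was ranked among 8348 genes with an average log2 CPM of at least 3 in each of the 6 library types. Predicted genes, named Gm with digits or ending in Rik, were passed over. Those most like Wfs1 were Ntm (0.77), Fam234b (0.75) and Dner (0.75). Those most like Prox1 were Rfx3 (0.79), Dgkh (0.75) and Stxbp6 (0.73), and those most like Neurod6 were Csnk1a1 (0.80), Chn1 (0.78) and Calm2 (0.73).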

How the data were processed

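The 180 libraries (30 mice, 6 types) were prepared, per the labels, with the SMART-seq v4 kit. STAR 2.6.1a, featureCounts, MultiQC 1.6a0 and the build GRCm38.p6 are named in the submitters' processing notes, without settings. The authors deposited whole-number counts per gene and library, not normalized. Libraries held 12 to 27 M counts; reads are not independent molecules, so precision covers counting and the spread between mice.

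Tests used edgeR 4.0.16 under R 4.3.3: filterByExpr, TMM scaling, 1 coefficient per group, quasi-likelihood fits with the robust option, Benjamini-Hochberg adjustment over all genes tested and a threshold of 0.05, with a fold of 2 for captures and fractions. All 10 markers passed the filter in every fit. The marker genes were named whatever their result; of other list genes those called may be named. Printed levels are CPM with TMM over all 180 libraries, whereas fold changes use the scaling of their own fit, so small ones can differ. Logged CPM had a prior count of 2. Mice were counted against the median of the other condition within their arm. The SD effect is the mean over both training arms, and the CFC effect that over both sleep arms.

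Mouse numbers in the titles, 1 to 30, were taken to pair the libraries of a mouse. The labels' protocol describes the division of each homogenate but does not state the numbering. The same-numbered library of another type was the best match in 157 of 450 cases. Deviations of same-numbered libraries correlated at a median of 0.288, against -0.0146 for other numbers; the lowest pair was -0.207. No 2 libraries of the same type and group were copies (lowest chi-square per degree of freedom 3.01 over 588 pairs). Pairs across types or groups were not compared in this way. Alternatives were DESeq2 1.42.0, other scalings, no filter, the mouse as a block, the run of mouse numbers as a term, and leaving out mice 23 to 30 or, chosen after seeing the data, mice 19 and 22. Of 54429 symbols 98.8% matched GENCODE vM21. The markers and the 11 lists (106 genes) were chosen with earlier results of these data known. The fits were checked on simulated counts that held 2-fold changes and no mouse effect. That check does not cover smaller changes or the pairing of libraries. A result for 1 other list gene is not reported here.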

Additional observations from a re-analysis of the deposited data

Results flagged for a closer look

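Among 240 sets of 7 or 8 mice (10 markers, 6 library types, 4 groups), 5 held a mouse far from the others, where chance gives about 1 in 20. In CFC SD, mouse 22 was highest for Wfs1 in pS6 cytosolic (61.34 CPM) and Camk2a cytosolic libraries (408.1 CPM) and for Fibcd1 in Camk2a cytosolic libraries (451.9 CPM). Mouse 17 was highest for Fibcd1 in pS6 cytosolic libraries of CFC Sleep (290.2 CPM), and mouse 3 for Plk5 in those of NoCFC Sleep (18.25 CPM).

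The membrane minus cytosolic difference differed between a capture and Input by the test of the interaction. In pS6 against Input it was higher for Pou3f1 (0.728), Plk5 (0.6137), Dsp (0.6057), Wfs1 (0.4467), Prox1 (0.3942), Nov (0.2389) and Itpka (0.2127). In Camk2a against Input it was higher for Dsp (0.3345) and lower for Plk5 (-0.4363) and Neurod6 (-0.1262). The Neurod6 value was -0.08 and not called with DESeq2 size factors.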

How the results depend on the processing

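The number of markers called moved by over 1.5 times in these settings. With the run of mouse numbers as a term it was 0 for CFC in Camk2a, Input and pS6 membrane libraries, against 2, 1 and 3, while over all genes 1, 0 and 12 were called. Without mice 23 to 30 it was 1 for CFC in Camk2a membrane, 1 for SD in pS6 cytosolic and 1 for SD in pS6 membrane libraries, against 2, 5 and 4; over all genes the SD calls were 471 and 76, against 1299 and 287. Without mice 19 and 22 it was 2 for CFC in Input membrane libraries, against 1; Plk5 was added. With the replicate block it was 5 for the fraction difference of Camk2a minus Input, against 3, and 2 and 3 for the SD effect of pS6 minus Camk2a and of pS6 minus Input in the cytosolic fraction, against 0 and 0; the block moved no other count that far. Total counts alone turned Pou3f1, membrane minus cytosolic in pS6, to -0.07899 from 0.15, and raised cytosolic Input levels (Wfs1 104 CPM, against 84.8). The causes were not tested. Of 1191 values past no test, 89 changed sign in some setting. DESeq2 was not run for interactions. Few counts limit Plk5 and Dsp in pS6 libraries.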
